A study of Mus musculus with 2 samples.

Results

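Levels and transcript forms of 8 protein kinase C (PKC) genes were examined in total RNA of mouse hippocampus. The genes were chosen by name, as Prkca, Prkcb, Prkcd, Prkce, Prkch, Prkci, Prkcq and Prkcz, out of 55536 annotated genes. Other kinases of the family are not analysed here. The tissue came from female B6CASTF1/J mice aged 2 months, the first-generation hybrid of C57BL/6J and CAST/EiJ, and the labels call it a layer of hippocampus without saying which layer. The 2 libraries, each made from 300 ng of RNA with ERCC spike-in RNAs added, are labelled biological replicates 1 and 2 of 1 group, so no condition is compared. They carry 1 donor record but a tissue record each, and separate animals are not stated outright, so some of the difference between the libraries may come from their handling.

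Protein kinase C enzymes are serine and threonine kinases that respond to lipid signals made when phospholipase C cleaves membrane phosphoinositides. Conventional members need calcium and diacylglycerol, the calcium-independent members (nPKC) need diacylglycerol alone, and the atypical members need neither and are steered by protein partners. In hippocampal neurons the family is known for its part in synaptic plasticity, and a short, constantly active product of Prkcz, called PKMζ, has been studied for its relation to memory.

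The gene tables held 29490900 expected counts on annotated genes in replicate 1 and 30691917 in replicate 2. An expected count is a number of reads assigned to a gene or transcript after reads with several possible origins have been shared out. The common biological coefficient of variation between the libraries, from edgeR with an intercept alone, was 4.86% over 17782 genes. The libraries were not copies of each other, since their counts differed by 3.55 times the sampling variance over 14336 protein-coding genes. All 6 dentate granule cell markers, all 5 CA1 and all 5 CA3 pyramidal cell markers, and all 6 pan-neuronal markers stood at 1 TPM or more in both libraries, as did all 7 microglial and all 5 astrocyte markers. So did all markers of GABAergic neurons (6), mature oligodendrocytes (5), oligodendrocyte precursors (4), endothelium (6) and meningeal fibroblasts (5). Of the other lists, 5 of 6 thalamic, 3 of 6 choroid plexus and 1 of 5 T cell markers did so. Since most protein-coding genes reached a mean of 1 TPM, these counts say only which markers were present. These are bulk samples, in which fewer cells of a type and less RNA per cell cannot be told apart.

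All 8 genes were detected, at 1 TPM or more in both libraries, and their levels spanned more than 2 orders of magnitude. Most protein-coding genes also reached a mean of 1 TPM. Levels are given in TPM (transcripts per 1000000), a unit scaled for transcript length and library depth, from the first of 2 deposited quantifications. Prkcb was highest at 307.2 ± 5.46 TPM, and Prkch was lowest at 1.40 ± 0.0566 TPM (SD, n = 2). In each library the order was Prkcb, Prkce, Prkca, Prkcz, Prkci, Prkcd, Prkcq and Prkch. The 8 genes summed to 660.2 TPM in replicate 1 and 668.7 TPM in replicate 2. The 2 conventional genes made up 391.7 ± 2.28 TPM of that sum, the 4 nPKC genes 185.0 ± 4.43 TPM and the 2 atypical genes 87.7 ± 0.700 TPM (SD, n = 2). Prkcb alone held 46.2% ± 0.403 of the summed TPM and Prkce 24.7% ± 0.119.

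**Figure D1:**
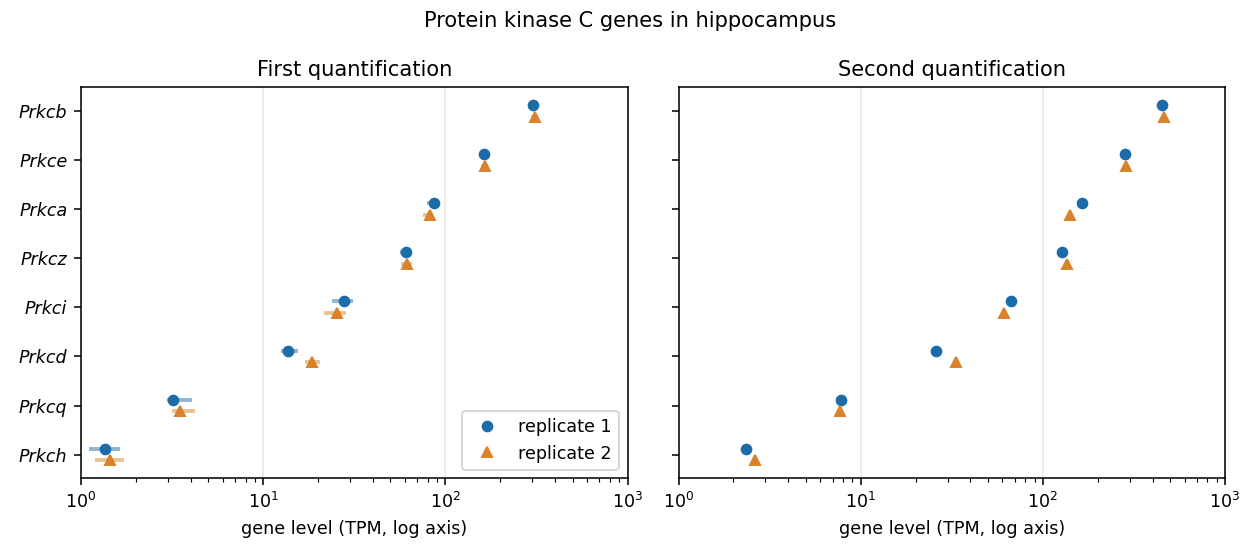
Gene level (TPM, log axis) of the 8 genes in replicate 1 (circles) and replicate 2 (triangles), in the first quantification (left, with the authors' TPM intervals as lines) and the second (right). The order of the genes is the same in both panels, and the libraries stand furthest apart at Prkcd, at 13.6 TPM in replicate 1 and 18.5 TPM in replicate 2.

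Neighbours in this order were compared by the log2 ratio of their TPM within each library, and were called apart when the mean ratio exceeded 3 SD. Prkcb exceeded Prkce by 0.90 ± 0.02 on the log2 scale, and Prkce exceeded Prkca by 0.96 ± 0.06. Prkca stood above Prkcz by 0.46 ± 0.08. The step below Prkcz, to Prkci, was 1.21 ± 0.11. Prkci and Prkcd were the pair that did not separate, with a log2 ratio of 0.74 ± 0.40. The widest step, 2.25 ± 0.23, lay between Prkcd and Prkcq, so that Prkcq and Prkch formed a low pair. In the second quantification the order was again the same, but there Prkca over Prkcz was the pair within the spread, at a log2 ratio of 0.21 ± 0.21. The second quantification placed every gene at a higher TPM, from 456.5 ± 7.11 TPM for Prkcb to 2.49 ± 0.193 TPM for Prkch (SD, n = 2).

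The conventional genes were both abundant. Prkcb (ENSMUSG00000052889.11, mm10, chr7:122288751-122634402, plus strand) encodes PKCβ and measured 303.3 TPM in replicate 1 and 311.1 TPM in replicate 2, above 99.5% of protein-coding genes. Rescaled to the TPM of nuclear protein-coding genes alone, this was 760.1 ± 15.4 TPM. Prkca (ENSMUSG00000050965.14, chr11:107933387-108343928, minus strand) encodes PKCα and measured 86.7 TPM in replicate 1 and 82.2 TPM in replicate 2. It stood above 95.6% of protein-coding genes.

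Prkcb yields 2 classical proteins that differ in their C-terminal end, because the last coding exon is chosen between alternatives. In the annotation, Prkcb-202 has 673 codons and ends in the upstream exon, the order known for βII, while Prkcb-201 has 671 codons and ends in the downstream exon, that of βI. The coding parts of the 2 last exons are shown because the split of the gene rests on them (GRCm38, plus strand, chr7:122627656-122627811 and chr7:122633745-122633894, read from the GENCODE M21 annotation and the genome, without the stop codon).
Prkcb-202 last coding exon: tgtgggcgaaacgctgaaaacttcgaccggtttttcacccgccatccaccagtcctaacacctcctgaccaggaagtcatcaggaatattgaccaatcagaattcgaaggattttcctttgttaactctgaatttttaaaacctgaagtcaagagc
Prkcb-201 last coding exon: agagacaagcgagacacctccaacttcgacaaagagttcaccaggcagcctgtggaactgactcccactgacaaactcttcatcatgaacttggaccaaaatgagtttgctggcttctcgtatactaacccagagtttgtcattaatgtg
The 2 exons are alike in length, at 156 and 150 bases, and identical at 86 of 159 aligned columns (54.1%), so reads from them can be told apart.

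Prkcb-202 was the leading transcript of Prkcb in both libraries, at 145.4 TPM in replicate 1 and 142.1 TPM in replicate 2. Prkcb-201 measured 3.95 TPM in replicate 1 and 9.44 TPM in replicate 2. The log2 ratio of Prkcb-202 over Prkcb-201 was 4.56 ± 0.91 (SD, n = 2), which is 36.8-fold in replicate 1 and 15.0-fold in replicate 2. Both libraries thus placed βII-type transcripts above βI-type transcripts, with a ratio that itself was loosely measured. The ratio depends on a further transcript, Prkcb-208, which is annotated as a retained intron and is not counted with either form. Prkcb-208 is 955 bases long and was assigned 125.6 TPM in replicate 1 and 131.6 TPM in replicate 2. It contains all 658 bases of the Prkcb-201 last exon, untranslated part included, and 297 bases of the intron before it. When Prkcb-208 was counted together with Prkcb-201, in a comparison added after the values were seen, the log2 ratio of Prkcb-202 over the pair was 0.09 ± 0.11 by TPM and 1.68 ± 0.17 by expected counts. A further transcript, Prkcb-205, annotated for nonsense-mediated decay, has the 673 codons of the Prkcb-202 coding sequence and runs on into the Prkcb-201 last exon. It measured 25.4 TPM in replicate 1 and 24.6 TPM in replicate 2, and 91.8 and 90.3 TPM in the second quantification, and is counted with neither form. Which molecules gave the reads of that last exon was not tested.

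Long and short transcripts weigh differently in TPM and in counts, and this mattered for several of the genes. Retained-intron transcripts held 42.6% ± 0.499 of Prkcb TPM but 18.7% ± 0.298 of its expected counts, and for Prkcd they held 38.6% ± 1.28 of TPM and 19.1% ± 0.0354 of counts. For Prkca, annotated non-coding processed transcripts held 34.9% ± 0.944 of TPM and 3.48% ± 0.147 of counts. Prkca-204, one of them, is 678 bases long against 8409 bases for the coding Prkca-201, so few reads give a high TPM. For Prkci the processed-transcript share was 19.6% ± 0.357 of TPM and 4.67% ± 0.328 of counts. For Prkcz it was 16.1% ± 0.911 of TPM and 3.02% ± 0.211 of counts (SD, n = 2). The libraries were made from total RNA, in which unspliced precursor RNA is also sequenced, and how far that entered these shares was not tested.

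**Figure D2:**
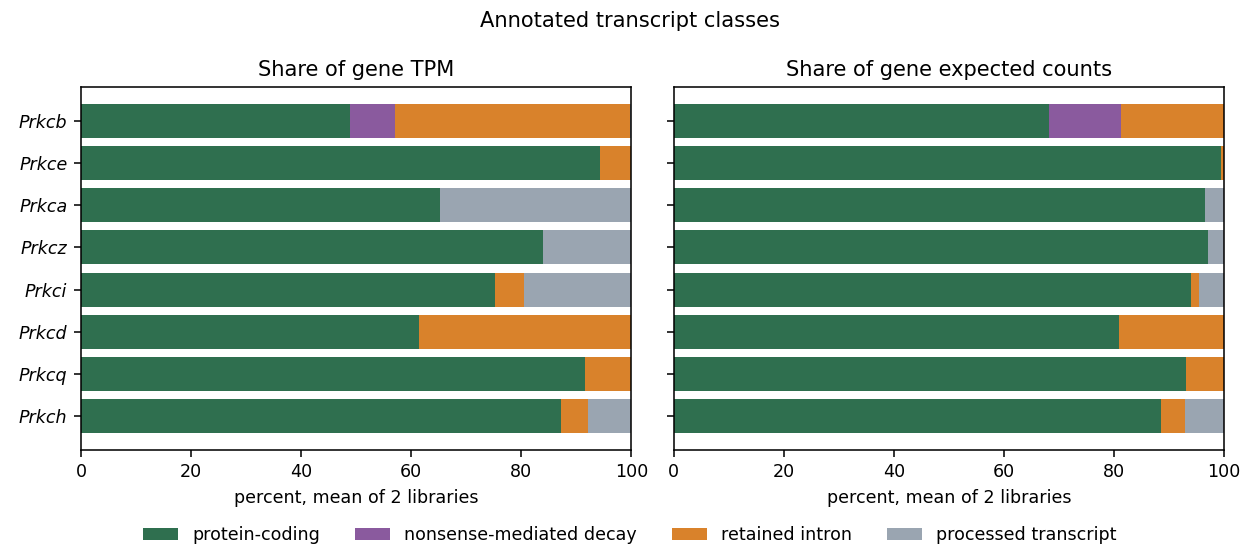
Share of each gene's TPM (left) and of its expected counts (right) by annotated transcript class, in percent, as the mean of both libraries. Protein-coding transcripts hold 49.0% of Prkcb TPM and 94.3% of Prkce TPM, and for Prkca the processed transcripts that are visible by TPM almost vanish by counts.

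With protein-coding transcripts alone, the top of the order changed. Prkce then measured 151.0 TPM in replicate 1 and 158.6 TPM in replicate 2, and Prkcb 149.3 TPM in replicate 1 and 151.5 TPM in replicate 2. In the first quantification the log2 ratio of Prkce over Prkcb was 0.04 ± 0.04, so these genes could not be ordered there. In the second, Prkce-202 measured 211.1 TPM in replicate 1 and 223.2 TPM in replicate 2, and Prkce-201 62.9 and 55.7 TPM. Prkcb-202 measured 197.5 and 193.0 TPM there, and Prkcb-201 5.17 and 11.9 TPM. The coding transcripts of Prkce thus stood above those of Prkcb in both libraries of the second quantification. The lead of Prkcb in total TPM therefore rests on transcripts that the annotation does not call protein-coding. For coding transcripts in the first quantification, Prkca over Prkcz, at a log2 ratio of 0.10 ± 0.07, and Prkci over Prkcd, at 1.03 ± 0.45, were also within the spread.

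The 4 nPKC genes ranged from abundant to barely detected. Prkce (ENSMUSG00000045038.14, chr17:86167785-86657919, plus strand) encodes PKCε, a neuronal isoform known at presynaptic terminals, and measured 163.7 TPM in replicate 1 and 164.7 TPM in replicate 2. Nearly all of it came from 1 transcript, Prkce-202, which held 94.0% ± 2.44 of the gene's TPM and 99.3% of its expected counts. Prkce-202 and Prkce-201 code for the same number of codons, 737, and differ in length, at 6254 and 3161 bases. The second quantification gave Prkce-201 62.9 TPM in replicate 1 and 55.7 TPM in replicate 2, whereas the first gave it 0 and 0.99 TPM.

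Prkcd (ENSMUSG00000021948.17, chr14:30595354-30626210, minus strand) encodes PKCδ, which is widely expressed outside the brain and strong in thalamic relay neurons. It measured 13.6 TPM in replicate 1 and 18.5 TPM in replicate 2. Its leading transcript, Prkcd-207, has 674 codons and held 59.1% ± 0.384 of TPM and 78.5% of expected counts. Of its 13 annotated transcripts, 7 are protein-coding, and Prkcd-202, Prkcd-204 and Prkcd-205 were at 0 in both libraries in the first quantification. In the second quantification Prkcd-207 held 38.6% ± 1.03 of TPM and Prkcd-205 held 14.2% ± 1.63.

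Prkcq and Prkch were the low pair. Prkcq (ENSMUSG00000026778.13, chr2:11172108-11301222, plus strand) encodes PKCθ, best known for signalling from the T cell receptor, and measured 3.21 TPM in replicate 1 and 3.49 TPM in replicate 2, from 236 and 259 counts. The T cell markers Cd3g and Cd2 had no count in either library, Cd3e had 1 and 2 counts, and Cd3d had 1 and 0 counts. Lck, the remaining T cell marker, measured 1.56 TPM in replicate 1 and 2.43 TPM in replicate 2. Prkcq-201 led in the first quantification with 86.5% ± 6.80 of TPM. The second quantification put Prkcq-203, a retained-intron transcript that shares stretches of at least 200 bases with transcripts of many other genes, first in replicate 1 at 3.18 TPM, against 2.67 TPM for Prkcq-201, which held 39.3% ± 7.28 of the gene's TPM there. Prkch (ENSMUSG00000021108.18, chr12:73584796-73778185, plus strand) encodes PKCη, known mainly from epithelia, and measured 1.36 TPM in replicate 1 and 1.44 TPM in replicate 2, from 100 and 110 counts. It stood above 43.3% of protein-coding genes, and Prkch-201 held 87.2% ± 1.502 of its TPM. In the second quantification Prkch-201 held 61.3% ± 16.4. There Prkch-204, annotated for nonsense-mediated decay, held 30.5% in replicate 1 and 0 in replicate 2.

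The atypical genes were of middle rank. Prkci (ENSMUSG00000037643.14, chr3:30995747-31052959, plus strand) encodes PKCι, a kinase of the cell polarity complex, and measured 27.7 TPM in replicate 1 and 25.4 TPM in replicate 2. The full coding transcript Prkci-201 held 47.3% ± 3.09 of its TPM and 88.2% of its expected counts. Prkci-203, a 614-base transcript with an incomplete coding sequence, held 27.9% ± 3.85 of TPM. The second quantification gave Prkci-201 33.5% ± 1.88 of TPM, the processed transcript Prkci-202 30.6% ± 0.255 and Prkci-203 28.6% ± 1.21. Prkcz (ENSMUSG00000029053.16, chr4:155260129-155361361, minus strand) encodes PKCζ and the short PKMζ, and measured 60.6 TPM in replicate 1 and 61.9 TPM in replicate 2.

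Prkcz is transcribed from alternative starts. The full-length transcript Prkcz-201 has 18 exons and 592 codons. The transcript Prkcz-202 has 15 exons and starts 15589 bases downstream, at an exon of its own that lies inside the gene. Its coding sequence begins at codon 184 of the full-length frame and runs for 409 codons, so it lacks the first 183 codons, which encode the N-terminal regulatory part, and keeps the kinase part. The RefSeq promoter windows of the 2 starts (GRCm38.p6, minus strand, 250 bases before to 10 bases after the start, chr4:155345780-155346039 for the internal start and chr4:155361419-155361678 for the full-length start) are shown because the split of the gene depends on which start is used.
Prkcz internal promoter: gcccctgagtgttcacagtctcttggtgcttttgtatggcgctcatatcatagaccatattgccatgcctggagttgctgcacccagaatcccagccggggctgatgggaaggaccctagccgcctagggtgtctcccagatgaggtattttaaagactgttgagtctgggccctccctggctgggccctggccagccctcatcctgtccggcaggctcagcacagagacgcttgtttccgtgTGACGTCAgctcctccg
Prkcz full-length promoter: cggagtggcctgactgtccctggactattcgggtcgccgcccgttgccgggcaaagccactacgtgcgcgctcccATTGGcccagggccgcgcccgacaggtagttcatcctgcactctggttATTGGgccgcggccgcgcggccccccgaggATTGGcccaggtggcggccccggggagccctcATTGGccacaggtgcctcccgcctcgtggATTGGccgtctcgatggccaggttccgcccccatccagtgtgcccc
The capitals in the internal promoter mark a cyclic AMP response element, TGACGTCA, which begins at position -7 from the RefSeq start. The capitals in the full-length promoter mark 5 CCAAT boxes, read here as ATTGG on the opposite strand, of which the first begins at position -175. Both motifs were searched on both strands, and they do not overlap here. The response element, a palindrome, occurs in 1.79% of 32851 RefSeq promoter windows of 300 bases, and in no other of the 9 windows found for 6 of the 8 genes. At least 1 CCAAT box occurs in 37.4% of the windows, and 5 or more in 0.271%. These matches describe the letters and are not evidence of binding.

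The start codon of the short form is shown with the 30 bases before it and the codons after it, because it is the point at which the short protein joins the full-length frame (GRCm38, minus strand, ATG at chr4:155294267-155294269, in capitals; the stretch is spliced).
Prkcz short-form start codon: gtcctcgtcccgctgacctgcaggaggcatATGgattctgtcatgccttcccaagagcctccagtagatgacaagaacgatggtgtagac

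Short-form transcripts as a class made up most of Prkcz TPM in both libraries and both quantifications. Prkcz-202 measured 46.5 TPM in replicate 1 and 46.7 TPM in replicate 2, from 4024 and 4204 expected counts. The other coding transcripts with an internal start, Prkcz-204 and Prkcz-206, are fragments with incomplete coding sequences, and Prkcz-206 is annotated with a different first coding exon. The 3 together held 82.9% of the gene's TPM in replicate 1 and 83.6% in replicate 2, a mean of 83.2% ± 0.494, and 96.4% ± 0.123 of its expected counts (SD, n = 2). Transcripts with the full-length start held 0.380% of TPM in replicate 1 and 0.970% in replicate 2. All of that came from Prkcz-201, with 12.9 expected counts in replicate 1 and 34.5 in replicate 2, while Prkcz-203 was at 0. The remaining 16.1% ± 0.911 of TPM lay on 5 non-coding transcripts, mainly Prkcz-209, which overlaps the 3′ exons.

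The log2 ratio of short over full-length forms was 7.77 in replicate 1 and 6.43 in replicate 2, a mean of 7.10 ± 0.95. The second quantification gave 3.60 in replicate 1 and 3.04 in replicate 2, a mean of 3.32 ± 0.40. Both quantifications and both libraries placed the short form above the full-length form, but the size of the ratio differed between quantifications by far more than between libraries. In the second quantification the short forms held 70.3% ± 3.03 of Prkcz TPM and the full-length start 7.13% ± 1.65. There Prkcz-202 alone held 46.9% ± 3.27, and the fragment Prkcz-204 held 21.3% ± 0.339. In that quantification Prkcz-201 measured 7.61 TPM in replicate 1 and 11.2 TPM in replicate 2.

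**Figure D3:**
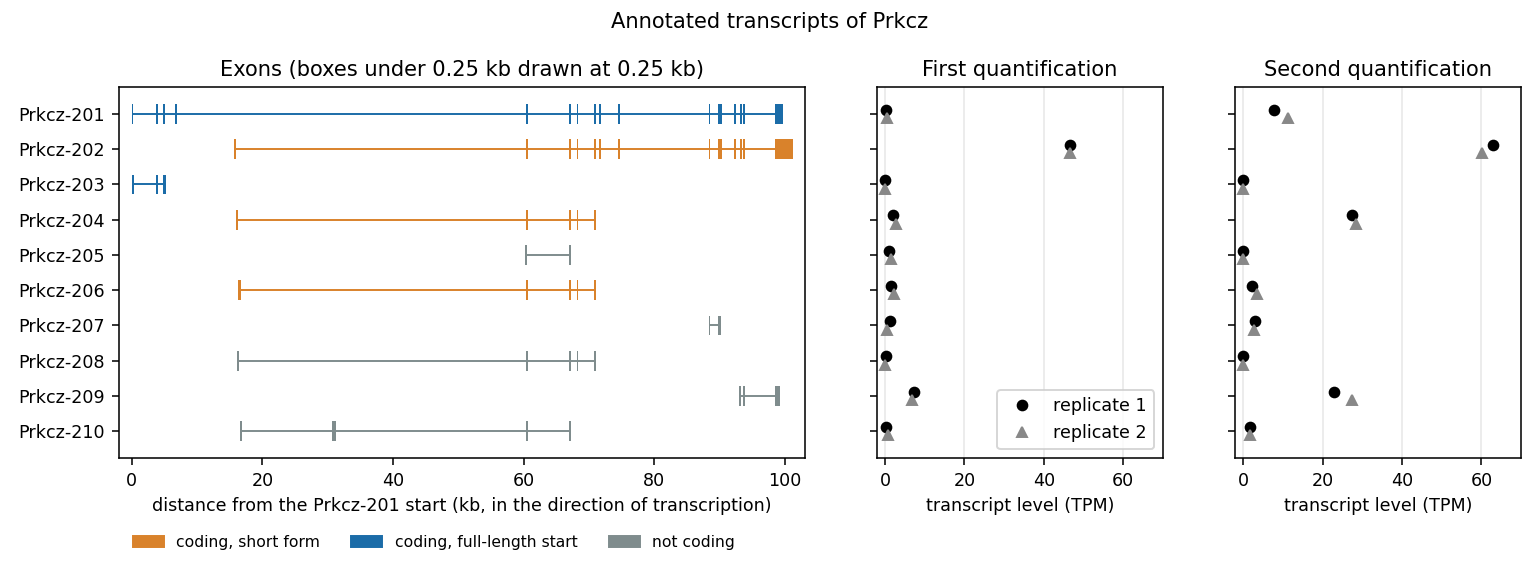
Exons of the 10 annotated Prkcz transcripts by distance from the Prkcz-201 start (kb), and the TPM of each in replicate 1 (circles) and replicate 2 (triangles) by both quantifications. Prkcz-202 is highest in both, at 46.5 and 46.7 TPM in the first, and it measures 62.9 and 60.2 TPM in the second. Prkcz-201, Prkcz-204 and Prkcz-209 stand further from 0 in the second quantification than in the first.

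The annotated difference between Prkcz-202 and Prkcz-201 lies at both ends. They share 2168 bases, and 473 bases at the 5′ end belong to Prkcz-201 alone. Of 1915 bases of Prkcz-202 that Prkcz-201 lacks, 323 lie at its 5′ end and 1592 extend its 3′ end. Reads from the longer 3′ end are thus assigned to Prkcz-202 whichever start the molecule had, and the part of each end in the split was not tested. A processed pseudogene, Prkcz2, also bears on the full-length count, since it is 98.6% identical to Prkcz-201 over 1755 aligned bases. Prkcz2 was assigned 59.3 counts in replicate 1 and 74.4 in replicate 2, more than Prkcz-201 in each library. The TPM of Prkcz2 was added to the full-length form in the first quantification, in a comparison chosen after the values were seen. The short form then held 96.4% of both forms in replicate 1 and 95.2% in replicate 2, against 99.5% and 98.9% without Prkcz2. By the second quantification the short form held less, 92.4% in replicate 1 and 89.1% in replicate 2, with Prkcz2 not added.

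The 2 libraries were then compared gene by gene, as replicate 2 over replicate 1, on TMM-scaled expected counts with 0.5 added, over 15509 genes with a mean of at least 1 count per 1000000. All 8 PKC genes passed that minimum. None of the 8 differed by 1.5-fold or more, against 2.83% of all tested genes (1.56% higher and 1.27% lower in replicate 2). The log2 ratios of 7 genes lay between -0.05 for Prkca and 0.08 for Prkch. The median over the 8 genes was 0.04, and the median over all tested genes was -0.003. By a second rule, separate TPM intervals in the deposited gene tables, 1 of the 8 genes was apart, against 4.38% of all tested genes in either direction and 2.26% higher in replicate 2.

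That gene was Prkcd. It had 856 counts and 18.5 TPM in replicate 2, with an interval of 17.1 to 20.5 TPM, against 589 counts and 13.6 TPM in replicate 1, with an interval of 12.5 to 15.5 TPM. Its log2 ratio was 0.48, or 1.39-fold, and 2.45% of tested genes had a higher ratio. The second quantification gave a log2 ratio of 0.44. With 1 library on each side the difference has no replicate check. Other genes moved beside it, in both directions. The 6 thalamic markers summed to 21.1 TPM in replicate 2 and 17.8 TPM in replicate 1, and did not move as 1 group. Without Zic1 that sum did not rise. By scaled counts Ramp3 was the 1 tested thalamic marker past 1.5-fold, with a log2 ratio of 0.70 in the direction of Prkcd. Its TPM was 2.97 in replicate 2 and 1.83 in replicate 1. Zic1 measured 7.17 TPM in replicate 2 and 3.44 TPM in replicate 1, with a smaller log2 ratio of 0.42 by scaled counts. Slc17a6, in the other direction, measured 3.69 TPM in replicate 2 and 5.55 TPM in replicate 1, with a log2 ratio of -0.52 by scaled counts. Tcf7l2 and Lef1 were close between the libraries, with log2 ratios of 0.07 and -0.04, and Gbx2 was near 0 in both. The 6 dentate granule cell markers summed to 197.2 TPM in replicate 2 and 171.3 TPM in replicate 1, with 5 of 6 ratios above 0. Mature oligodendrocyte markers summed to 950.6 TPM in replicate 2 and 861.5 TPM in replicate 1, with 5 of 5 ratios above 0, and astrocyte markers to 1345 TPM in replicate 2 and 1302 TPM in replicate 1, with 4 of 5 above 0. GABAergic markers went the other way, at 392.1 TPM in replicate 2 and 412.9 TPM in replicate 1, with 1 of 6 ratios above 0. Pan-neuronal markers did so too, at 2814 TPM in replicate 2 and 2907 TPM in replicate 1, with 2 of 6 above 0. Single markers moved further than Prkcd, such as endothelial Slc2a1 at a log2 ratio of 0.54 and meningeal fibroblast Dcn at -0.56. Their lists did not move as 1 group, with Cldn5 at -0.39 and Col1a2 at 0.33. Ratios were above 0 for 3 of 6 endothelial and 3 of 5 meningeal fibroblast markers. Of the choroid plexus markers, Ttr measured 65.7 TPM in replicate 2 and 120.9 TPM in replicate 1, and made up nearly all of a list sum of 73.4 TPM in replicate 2 and 130.1 TPM in replicate 1. The part of these cell types in the Prkcd difference was not tested.

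**Figure D4:**
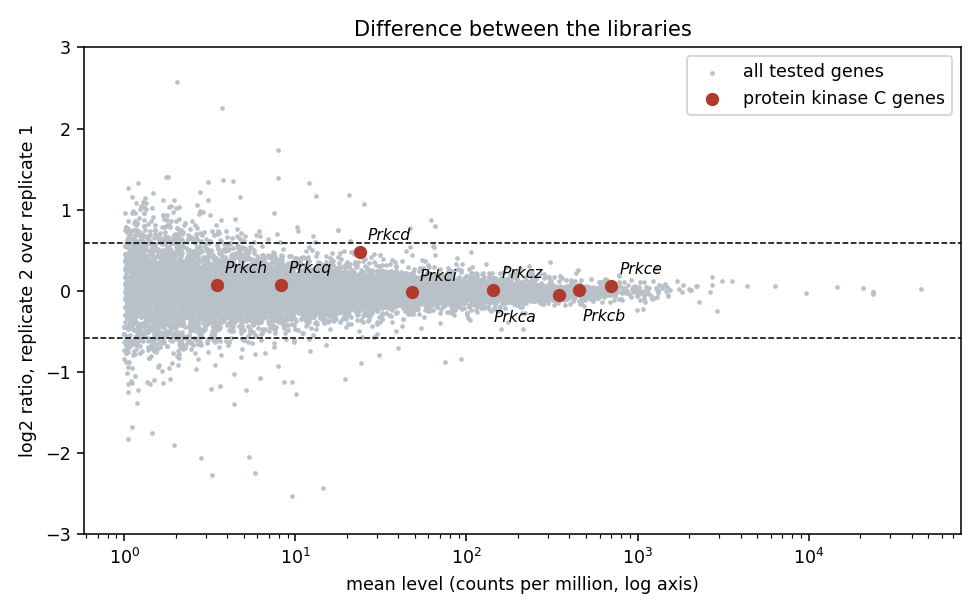
Log2 ratio of replicate 2 over replicate 1 against mean level (counts per 1000000, log axis) for 15509 tested genes (grey) and the 8 PKC genes (red), with dashed lines at 1.5-fold. All 8 lie between the lines, Prkcd highest at 0.48. The axis stops at 3 on the log2 scale, and 13 genes lie outside it.

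The genes that make, read and remove the PKC signal were set beside the 8 kinases. Of 67 genes in 7 lists, 64 stood at 1 TPM or more in both libraries, 64 were tested between the libraries, and none of these differed by 1.5-fold, against 2.83% of all tested genes. By separate intervals, 4 were higher in replicate 2 and 4 lower, which is 12.5% of those tested, against 4.38% of all tested genes. This rule can mark small differences in deeply counted genes. Nrgn, with 17504 and 17361 counts, was apart at a log2 ratio of -0.07, and Chn1, with 20901 and 23091 counts, at 0.08. Not all were of that kind. Dgkh, with 7974 and 10648 counts, was apart at 0.36, and Marcksl1, with 1166 and 1369 counts, at 0.17. The 2 shares were not matched for depth, and its part in the excess was not tested. Most protein-coding genes also reached a mean of 1 TPM, since Prkch, at 1.40 TPM, stood above only 43.3% of them. The share of all genes at 1 TPM in both libraries was not set beside that of the lists.

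Upstream of PKC, all 12 phospholipase C enzymes listed, which release diacylglycerol, were at 1 TPM or more. Plcb1, a form coupled to Gq proteins, measured 60.1 TPM in replicate 1 and 59.3 TPM in replicate 2. Plcg1, a form driven by receptor tyrosine kinases, averaged 39.2 ± 1.31 TPM, and Plch2 averaged 38.1 ± 3.57 TPM. Diacylglycerol kinases, which remove the lipid by phosphorylation, were led by Dgkz at 198.3 ± 10.03 TPM, followed by Dgkg at 79.8 ± 3.17 TPM and Dgkb at 63.6 ± 5.62 TPM (SD, n = 2). Of the 10 listed, 9 reached 1 TPM in both libraries, and the lowest was Dgkk at 0.195 ± 0.0354 TPM.

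New PKC protein is folded and phosphorylated before it can respond. Of the 9 genes of that list, the chaperone Hsp90ab1 measured 662.9 ± 1.39 TPM, Pdpk1, the kinase of the activation loop, 37.7 ± 0.389 TPM, and Mtor, the catalytic subunit of the complex that phosphorylates the C-terminal end, 36.3 ± 1.20 TPM. Of the 6 anchoring proteins, Fez1, which binds PKCζ, averaged 107.5 ± 0.127 TPM, Rack1, a receptor for activated PKC, 90.01 ± 2.70 TPM, and Akap5, which places PKC at the postsynaptic membrane, 23.4 ± 0.905 TPM. Of the 10 genes listed as partners of atypical PKC, Sqstm1 averaged 172.8 ± 1.09 TPM, Cdc42 116.5 ± 0.686 TPM, and Wwc1, which encodes KIBRA and binds PKCζ, 40.8 ± 1.41 TPM (SD, n = 2).

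Among 8 listed PKC substrates, Nrgn, the postsynaptic calmodulin-binding protein neurogranin, measured 598.3 TPM in replicate 1 and 571.9 TPM in replicate 2. The adducins Add1 and Add2, which cap and link actin filaments, averaged 170.7 ± 3.65 and 104.3 ± 5.33 TPM. Other proteins also bind diacylglycerol. Of 12 such genes, Chn1, which encodes a Rac-inactivating chimaerin, averaged 657.7 ± 32.4 TPM, above every PKC gene, Rasgrp1, a Ras activator, averaged 161.1 ± 1.24 TPM, and Unc13a, which primes synaptic vesicles, averaged 103.6 ± 1.27 TPM (SD, n = 2).

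**Figure D5:**
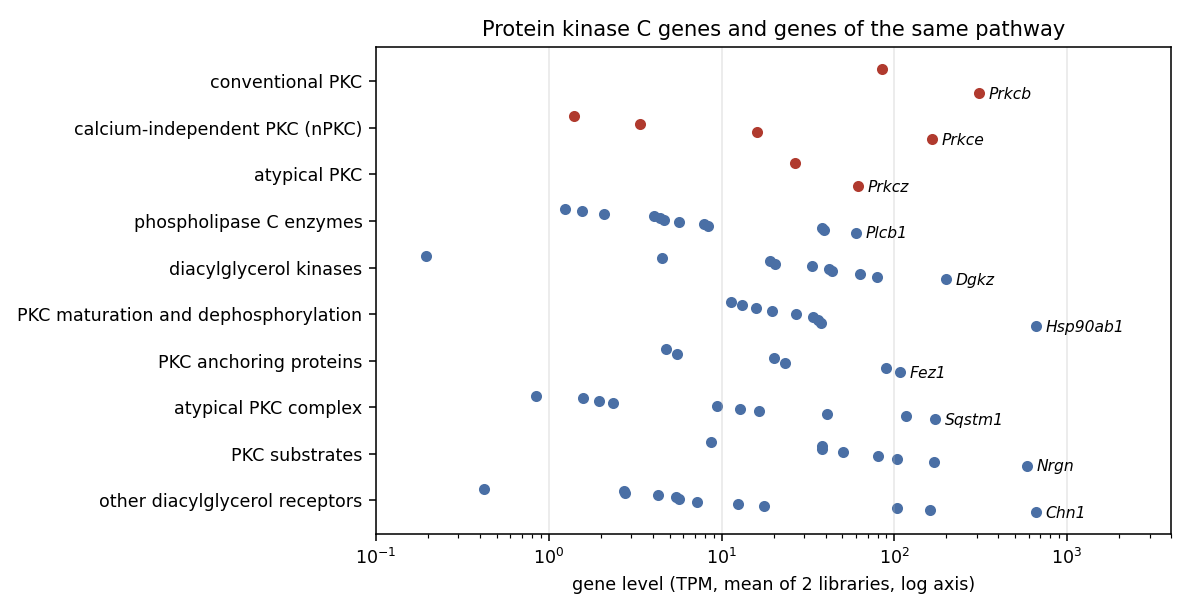
Gene level (TPM, mean of both libraries, log axis) of the PKC genes (red) and of the genes in 7 pathway lists (blue), with the highest gene of each list named. Prkcb at 307.2 TPM lies above the highest phospholipase C gene, Plcb1 at 59.7 TPM, and below Chn1 at 657.7 TPM and Hsp90ab1 at 662.9 TPM.

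Some annotated genes overlap the PKC genes. The antisense genes that overlap Prkca, Prkce and Prkcz, of which the highest was Gm27200 at 0.08 TPM, were at or near 0. The labels name a spike-in profile for stranded libraries but not the strand setting of the counting. AC154542.1 overlaps Prkce on the same strand, matches Prkce-204 over 348 bases, and measured 4.63 TPM in replicate 1 and 4.51 TPM in replicate 2. Within the Prkcb locus, Gm45191 on the same strand took 207 and 209 counts. The mice are hybrids and the counts were made on the C57BL/6J genome, so reads of the CAST/EiJ allele can be lost at variant sites, and that loss was not measured.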

How the data were processed

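Total RNA of 2 hippocampal libraries was quantified by the authors, with software not given in the sources used here. Per the file headers, the deposited gene and transcript tables hold expected counts and TPM, and a score per entry, the 2 limits of a TPM interval. A second deposited transcript table, from another quantification, holds estimated counts and TPM, per the file headers, and was summed here per gene. Notes deposited beside the files name mm10 and annotation M21. Spike-ins, tRNAs and other entries outside the annotation took 0.378% and 0.368% of expected counts and were left out.

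Expected counts were rounded for edgeR 4.0.16 (TMM, common dispersion; minimum count 10) and DESeq2 1.42.0. With 1 group no hypothesis test was run: values are means ± SD over 2 libraries, and the library ratio used 0.5 added counts. Fits were tested on simulated data. Copies of transcripts were sought with BLAST+ 2.17.0 (at least 90% identity over 200 bases). Intervals cover assignment and counting error only, and a TPM can lie outside its own interval, since the bounds go with another estimate. Sequences are from RefSeq and GENCODE. Of each pathway list the 3 genes with the highest TPM were named. Another pathway list is not reported here. Members and lists were chosen with earlier results of these data known.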

Additional observations from a re-analysis of the deposited data

How the results depend on the processing

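No member was apart by fold in the second quantification or with 1 added to counts. By construction 3 other settings could hardly change that: DESeq2 size factors shifted every ratio by 0.0008, all members already passed the minimum, and a 2-fold limit can only call fewer. With no minimum 14.5% of all genes were called. The order of the 8 genes held in the second quantification and in either library alone. Rescaled TPM and counts per length gave it too, but only rescale the same values. With protein-coding transcripts alone in the first quantification, an alternative added after seeing the data, 6 of 8 genes kept their place. The leading transcript held for 7 of 8 genes in the second quantification and for all 8 by counts or among coding transcripts.

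The Prkcz short-form share of 83.2% was 96.4% by expected counts and 70.3% in the second quantification. Of the full-length and short forms alone it was 99.2%, and 90.8% in the second quantification. Added after seeing the data, it was 95.8% of both forms with Prkcz2 counted as full-length, and 76.1% for Prkcz-202 alone (46.9% in the second quantification). Single libraries gave 82.9% to 83.6%. The log2 ratio of Prkcb-202 over Prkcb-201, also chosen after seeing the data, ranged from 3.91 to 5.20 in single libraries and was 4.63 in the second quantification. It was 0.088 with Prkcb-208 counted with Prkcb-201, which adds to the lower side by construction. Why the quantifications differed was not tested.

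The spread between libraries was 4.86%, 5.01% with no count filter, and 0.01% as the median of DESeq2 gene-wise estimates, where it lay at the tool's lower limit. No paired analysis was possible because the libraries form 1 group. Leaving out a library ends the comparison of libraries. With 2 libraries the SDs are themselves loosely known, and the full-length Prkcz form rests on 12.9 and 34.5 counts in the first quantification, against 274.5 and 416.7 in the second.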
